A study of Rattus norvegicus with 20 samples.

Results

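The islets of 10 male rat offspring were compared by father's diet: 5 sons of fathers fed a high-fat diet (HFD) against 5 sons of fathers fed a control diet. These are all the arrays of sons, 10 of the 20 arrays in the series, the other 10 being daughters. Founder male Sprague Dawley rats received either diet for 12 weeks and were mated with females on chow. The fathers of the litters numbered 8 on the control diet and 9 on HFD. Litters were cut to 12 pups and weaned onto chow, and islets were taken from non-fasted animals at 4 to 5 weeks of age. No son was given the high-fat diet after weaning, so the groups differ by label only in the diet of the father. The design text counts each array as a separate litter. Since the 10 arrays of a diet outnumber its fathers, some fathers must stand behind more than 1 array of a diet, and the labels do not say which. Sons are numbered here by accession within each group. The numbers name arrays and pair none. The question named by the series' title is whether a father's high-fat diet is followed by early, sex-dependent inflammation in the islets of the young.

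Islets are clusters of hormone cells within the pancreas, in which beta cells release insulin, alpha cells glucagon and delta cells somatostatin. Isolated islets also carry endothelial cells, stromal cells, resident macrophages and varying amounts of the surrounding enzyme-secreting acinar tissue, so bulk RNA reports a mixture. In such mixtures fewer cells of a type and less RNA per cell cannot be told apart. The tissue label was borne out by its markers: Ins1 lay between 13.82 and 14.06 and Gcg between 13.77 and 13.98 on the log2 scale in all 10 sons, near the top of the range of all values (1.18 to 14.17). Of the Y-linked genes listed, only Sry was measured, and it read 5.01 to 5.32 in sons and 4.89 to 5.10 in daughters, a gap too small to check the labelled sex.

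Control-sired son 1 stood apart from the other 9 sons before any comparison. Its log2 values were compressed, with an interquartile range of 2.23 against 2.52 to 2.74 in the others and a slope of 0.90 on the median of the other sons against 0.98 to 1.02. Its median correlation with the other sons was 0.964, against 0.981 to 0.987. Dim probe sets read too high in it and bright ones too low, by -0.26 in the brightest 10% and 0.19 in the dimmest 10%, as the plot of offsets by signal level shows. It also carried transcripts of the small intestine. Fabp2, the fatty acid binding protein of enterocytes, read 7.21 in this array and 3.39 to 3.79 in the other sons. The mean of 21 intestinal markers was 7.16 in it against 5.74 to 5.98. Counts, gene lists and most differences in sons are therefore given below with and without this array; values per array and permutation tests use all 10 sons.

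**Figure D1:**
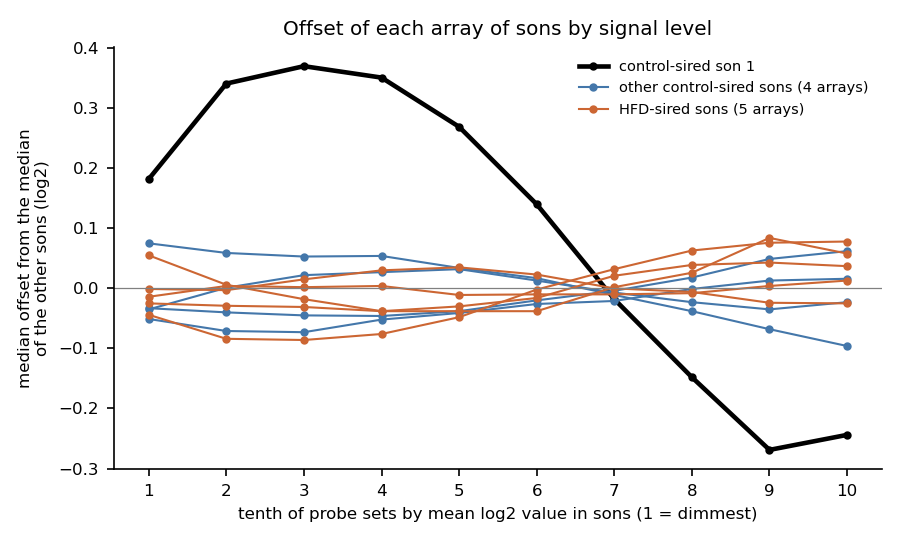
Median offset (log2) of each array of sons from the median of the other sons, in 10 bins of probe sets ranked on mean level (bin 1 is the dimmest); the black line is control-sired son 1, blue lines the other control-sired sons, orange lines the HFD-sired sons. Control-sired son 1 lies above the others at low levels and below them at high levels, while the other 9 arrays stay close to 0.

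Markers of other tissues and cell states also varied among the sons within both diets. Control-sired son 3 and HFD-sired sons 1 and 3 were high in lymph node markers, with list means of 7.68, 7.28 and 7.26 against 6.17 to 6.84 in the other 7. Glycam1, a mucin of lymph node venules, read 8.90, 8.61 and 9.11 in these 3 arrays and 5.41 to 6.42 in the rest. B cell markers were highest in control-sired sons 3 and 5 (list means of 7.23 and 7.10) and lowest in HFD-sired sons 2, 4 and 5 (5.33 to 5.39). Immediate early genes, which are switched on within minutes of handling or stimulation, were low in control-sired sons 4 and 5 and HFD-sired sons 4 and 5 (list means of 6.90, 6.86, 7.14 and 7.02, against 7.69 to 8.32). HFD-sired son 1 had the lowest mean of 24 acinar markers, 11.14 against 11.72 to 12.44. What part these differences play in the comparisons was not tested beyond leaving arrays out.

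**Figure D2:**
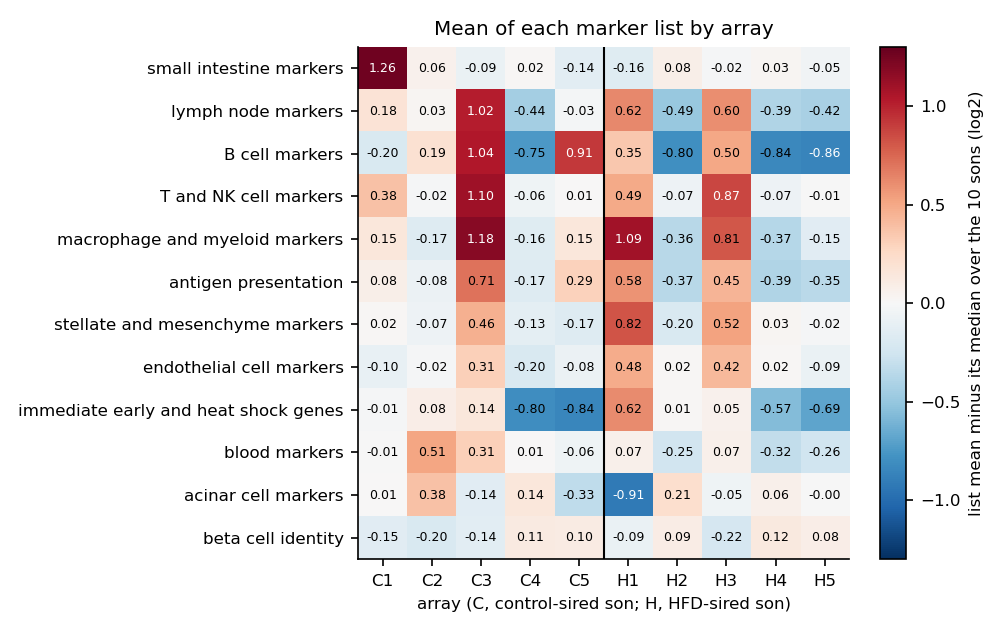
Mean log2 level of each marker list in each array of sons, minus the median of that list over the 10 sons (colour and printed values); C1 to C5 are control-sired and H1 to H5 HFD-sired sons. C1 stands out in small intestine markers, C3, H1 and H3 in lymph node, T cell and macrophage markers, C3 and C5 in B cell markers, and H1 is low in acinar markers.

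Across 29214 probe sets, 0 differed between the diets at an adjusted p under 0.05 (limma with Benjamini-Hochberg adjustment, smallest adjusted p = 0.838; percent called 0). At the unadjusted p under 0.05 that the series itself used, 1093 probe sets passed, 3.74% of those tested, 431 with higher values in HFD-sired sons (1.48%) and 662 with lower values (2.27%). That share is below the 5% that a threshold of 0.05 gives by itself if no probe set differs. Without control-sired son 1, the adjusted count was again 0 and 1022 probe sets passed unadjusted (3.5%; 434 higher, 1.49%, and 588 lower, 2.01%). The fits with 10 and 9 arrays shared 615 of these probe sets, 56.3% of the first list and 60.2% of the second, all with the same sign. Over the 14506 genes read from their brightest single-symbol probe set, 3.05% passed with 10 arrays and 2.37% with 9. The direction split depended on centring: 39.4% of the unadjusted probe sets were higher in HFD-sired sons as deposited and 63.1% (674 of 1068) after each array's median was subtracted. The compressed array shaped the split by level: the median difference ran from -0.09 among dim probe sets to 0.10 among bright ones (medians within bins of equal size by level), and from -0.02 to 0.04 without it. The median standard error of a difference was 0.13 log2 units. In simulated data with the same spread, 100 of 29214 probe sets were shifted by 0.5 and 100 by 1. Of these, 34% and 80% were called at the adjusted threshold. The simulated noise was independent between probe sets and lacked the differences between arrays described above, so recovery in the real data may differ. All gene differences below are HFD-sired minus control-sired sons on the log2 scale, with the standard error from limma, and no named gene passed the adjusted threshold (adjusted p = 0.838 or above).

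Reg3a and Reg3b gave the widest differences in mean among named genes, with 10 arrays and with 9. The REG genes encode secreted C-type lectins: Reg1a is made in quantity by acinar cells, and Reg3a, Reg3b and Reg3g are antimicrobial lectins of the gut that pancreatic acinar cells also make in inflammation. The bases upstream of the 3 Reg3 genes are shown because Reg3a and Reg3b had nearly the same pattern over the arrays and Reg3g did not. Each window holds the 250 bases before the transcript start in RefSeq (assembly GRCr8), at chr4:112430174-112430423 on the plus strand for Reg3a (the downstream of 2 starts listed), chr4:112419526-112419775 on the plus strand for Reg3b, and chr4:112484739-112484988 on the minus strand for Reg3g. Capitals mark matches to TTCNNNGAA, the palindrome that STAT factors bind, and to TATAAA, the core of a TATA box, searched on both strands.
Reg3a: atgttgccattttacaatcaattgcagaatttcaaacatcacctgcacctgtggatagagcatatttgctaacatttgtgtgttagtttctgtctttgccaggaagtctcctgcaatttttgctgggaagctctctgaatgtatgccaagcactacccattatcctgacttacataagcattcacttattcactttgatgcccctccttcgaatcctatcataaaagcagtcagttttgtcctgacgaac
Reg3b: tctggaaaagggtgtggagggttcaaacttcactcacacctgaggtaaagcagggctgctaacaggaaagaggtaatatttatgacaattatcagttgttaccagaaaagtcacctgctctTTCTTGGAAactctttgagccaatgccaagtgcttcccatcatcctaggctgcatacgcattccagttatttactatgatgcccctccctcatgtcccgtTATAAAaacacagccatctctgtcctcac
Reg3g: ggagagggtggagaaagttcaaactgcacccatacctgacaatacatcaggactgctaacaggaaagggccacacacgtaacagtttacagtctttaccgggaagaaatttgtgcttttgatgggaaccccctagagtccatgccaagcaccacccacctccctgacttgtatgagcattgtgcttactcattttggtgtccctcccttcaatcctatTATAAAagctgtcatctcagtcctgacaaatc
TTCNNNGAA occurred once in Reg3b and not in the windows of Reg3a and Reg3g, and it occurs in 7.67% of 33469 RefSeq windows of this length. TATAAA occurred 24 bases before the start in Reg3b and 27 bases before it in Reg3g, and occurs in 12.9% of windows. The windows of Reg3a and Reg3b were identical at 61.8% of aligned columns, Reg3a and Reg3g at 60.6%, and Reg3b and Reg3g at 63.8%. A match describes these letters and shows no binding.

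Reg3a read 12.17, 12.86, 12.33, 11.98 and 10.06 in control-sired sons 1 to 5 and 9.61, 11.53, 7.78, 6.94 and 12.16 in HFD-sired sons 1 to 5. The groups overlapped: 3 of 5 HFD-sired sons lay below all control-sired sons, and HFD-sired son 5 lay above control-sired sons 4 and 5. The difference was -2.28 ± 0.92 (SE, n = 5 and 5), which passed an unadjusted p under 0.05 in limma and had an exact two-sided permutation p of 0.0635. Without control-sired son 1 it was -2.21 ± 1.03 and no longer passed. Exact permutation tests below are two-sided, over all 10 arrays. Over the fits that each leave out 1 array the difference ran from -2.92 to -1.61. Without the 3 arrays high in lymph node markers it was -1.56 ± 1.12, and -1.43 ± 1.27 without control-sired son 1 as well. Neither passed an unadjusted p under 0.05 in limma.

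Reg3b followed nearly the same order of arrays, with 12.75, 13.40, 12.99, 12.54 and 10.15 in control-sired sons and 10.11, 11.54, 8.03, 7.44 and 12.87 in HFD-sired sons. HFD-sired son 5 lay above control-sired son 1 for this gene and just below it for Reg3a. The difference for Reg3b was -2.37 ± 0.96 (exact permutation p = 0.0873), and -2.27 ± 1.07 without control-sired son 1, where the unadjusted call of limma was again lost. Without the 3 arrays high in lymph node markers it was -1.59 ± 1.16, and -1.41 ± 1.31 without control-sired son 1 as well. Each gene varied over more than 5 log2 units within the HFD-sired group alone. HFD-sired sons 3 and 4, the lowest for both genes, had acinar list means of 12.00 and 12.12, inside the range of the control-sired sons (11.72 to 12.44). Other arrays went the other way. Control-sired son 5, the lowest control for both genes, had the lowest acinar mean of the controls, 11.72, and HFD-sired son 1 had 11.14. Control-sired son 2, the highest for both genes, had the highest acinar mean, 12.44. The part of acinar content in these values was not tested. How far the probe sets of these related genes cross-hybridise was not tested.

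Reg3g depended on the intestinal array. Its 11.04 in control-sired son 1 stood against 5.39 to 6.87 in the other control-sired sons and 4.84 to 7.41 in HFD-sired sons. The difference was -1.41 ± 0.92 with it and -0.40 ± 0.48 without it. Reg1a was lower by 0.31 ± 0.15 on average in HFD-sired sons (exact permutation p = 0.0873; -0.32 without control-sired son 1), with its lowest value, 12.66, in HFD-sired son 1, the array lowest in acinar markers. Without the 3 arrays high in lymph node markers, HFD-sired son 1 among them, Reg1a gave -0.08 ± 0.14. Reg4 gave -0.26 and, without control-sired son 1, 0.01. Of the 5 REG genes measured, 5 had a mean below 0 with all arrays (median -1.41) and 4 without that array (median -0.40), where the median over all 14506 genes with a single-symbol probe set was 0.02 in both fits. An unadjusted p under 0.05 was met by 2 of 5 with 10 arrays and 0 of 5 with 9, against 1.43% and 0.903% of all genes in that direction.

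Groups that did not overlap at all were found for 222 probe sets, 0.76% of those tested (0.318% higher and 0.442% lower in HFD-sired sons), and for 92 of the 14506 genes (0.634%; 58 higher, 0.4%, and 34 lower, 0.234%). Without control-sired son 1 they were found for 369 probe sets (1.26%) and 147 genes (1.01%). With 5 arrays against 5, a share of 0.00794 is expected to separate fully if nothing differs between the diets. The shares with all arrays, 0.76% of probe sets and 0.634% of genes, were below that. With fewer arrays the expected share is larger, so the higher counts without control-sired son 1 show no excess by themselves. Full separation alone therefore does not set a gene apart from chance. Adora1, the adenosine receptor that couples to inhibitory G proteins and lowers cyclic AMP, was among the 34 lower genes. It had the smallest p of any named gene. It read 7.93, 7.70, 7.61, 7.89 and 7.65 in control-sired sons and 7.29, 6.99, 7.26, 6.96 and 7.35 in HFD-sired sons. Every HFD-sired son lay below every control-sired son, and the nearest values of the groups were 7.35 and 7.61. The difference was -0.59 ± 0.11, a 1.5-fold lower level (adjusted p = 0.838, exact permutation p = 0.00794, the smallest that 5 arrays against 5 allow). It was -0.54 ± 0.11 without control-sired son 1, and ran from -0.63 to -0.53 over the fits without 1 array.

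Of the other 11 measured genes of adenosine signalling, 0 passed an unadjusted p under 0.05, with or without control-sired son 1. The other receptors measured, Adora2a and Adora2b, which raise cyclic AMP, gave -0.15 ± 0.14 and -0.20 ± 0.13 (-0.06 and -0.14 without control-sired son 1). The ectonucleotidases on the route to extracellular adenosine gave 0.16 ± 0.13 for Entpd1, -0.08 ± 0.15 for Entpd2, 0.09 ± 0.11 for Entpd3 and 0.12 ± 0.12 for Nt5e (CD73). These 4 gave 0.14, 0.01, 0.06 and 0.06 without control-sired son 1. Ada, which breaks adenosine down, gave -0.16 ± 0.19, set by a value of 7.20 in control-sired son 1 against 6.10 to 6.39 in the other control-sired sons, and 0.04 ± 0.11 without that array. Adk, adenosine kinase, gave -0.01 ± 0.11 (-0.09 without that array). The list median was -0.05 with 10 arrays and 0.02 with 9.

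Ugt2b37, a glucuronosyltransferase of the family that conjugates steroids and drugs, was also apart in all 10 arrays. Its values were 4.5, 4.30, 4.26, 4.52 and 4.25 in control-sired sons and 4.18, 3.55, 3.61, 3.54 and 3.31 in HFD-sired sons. HFD-sired son 1 nearly reached the controls and the other 4 lay well below. The difference was -0.73 ± 0.15 (exact permutation p = 0.00794), and -0.69 ± 0.15 without control-sired son 1. The probe set was dim, with only 11.4% of all probe sets dimmer; how far it stands above background is not known. Of 24 genes of drug and steroid metabolism 1, Ugt2b37, was lower at an unadjusted p under 0.05 with 10 arrays and with 9, where 1.43% and 0.903% of all genes were lower. The list median was -0.03, and 0.01 without control-sired son 1.

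**Figure D3:**
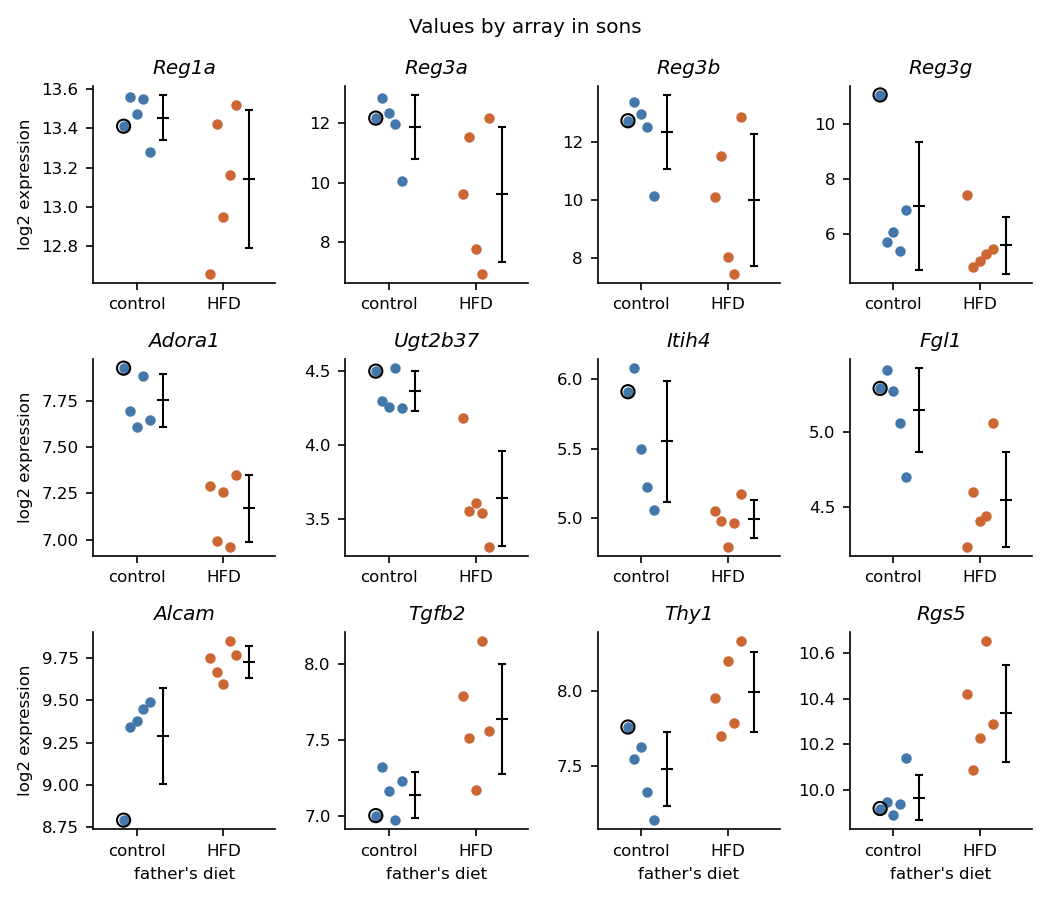
Log2 expression of 12 genes in the 5 control-sired (blue) and 5 HFD-sired (orange) sons; each point is an array, the black mark and bar are the group mean and SD, and the ringed point is control-sired son 1. Adora1, Ugt2b37 and Alcam separate the groups; Reg3a, Reg3b and the other genes overlap, and control-sired son 1 is the lowest point for Alcam and the highest for Reg3g.

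Plasma proteins of the acute phase and complement system included 3 genes lower at an unadjusted p under 0.05, of 29 measured, with 10 arrays and with 9, where 1.43% and 0.903% of all genes were lower. Without the 3 arrays high in lymph node markers 0 of 29 were lower, with or without control-sired son 1. Fgl1, a fibrinogen-like protein secreted by liver, read 5.29, 5.41, 5.27, 5.06 and 4.70 in control-sired sons and 4.23, 4.60, 4.40, 4.44 and 5.06 in HFD-sired sons. All HFD-sired sons but number 5 were below the controls, for a difference of -0.60 ± 0.17 (exact permutation p = 0.0159; -0.56 without control-sired son 1). Itih4, an inter-alpha-trypsin inhibitor chain of plasma, gave -0.56 ± 0.18 (exact permutation p = 0.0159) and -0.47 ± 0.18 without that array. Cfi, the protease that inactivates complement C3b and C4b, gave -0.56 ± 0.23 and -0.61 ± 0.25, with its highest values, 6.45 and 6.75, in control-sired sons 2 and 3. All these probe sets were on the dim side, with 21.1% of all probe sets dimmer for Fgl1, 28.1% for Itih4 and 37.1% for Cfi. How far they stand above background is not known. Lcn2, an iron-scavenging acute phase protein, was at 9.18 in HFD-sired son 1 and 5.99 to 7.31 in the other 9 sons, which made a mean difference of 0.59 ± 0.48 (0.63 without control-sired son 1). The median over the list was -0.06 with 12 of 29 genes above 0, and -0.02 with 13 of 29 without that array.

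Among the immune genes, B cell markers had means below 0 in 10 of 10 measured genes, with a median of -0.46 (-0.54 without control-sired son 1). Of all genes, 54.5% lay above 0, and 59.1% did without control-sired son 1. Ccr6, a chemokine receptor of B cells and some T cells, was the only marker of these 10 with an unadjusted p under 0.05, at -0.70 ± 0.26 (exact permutation p = 0.0556; -0.74 ± 0.28 without that array). Its values were 5.97, 6.05, 6.76, 5.43 and 6.46 in control-sired sons and 5.59, 5.19, 6.16, 5.13 and 5.10 in HFD-sired sons, so the groups overlapped. Cr2, the complement receptor of mature B cells, read 5.30, 7.63, 8.96, 4.18 and 8.98 against 7.03, 3.96, 7.54, 4.36 and 3.94, and the difference of -1.64 ± 1.02 was within that spread (exact permutation p = 0.23; -2.07 ± 1.08 without control-sired son 1). Ms4a1 (CD20) gave -0.65 ± 0.55, and -0.80 without that array.

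Antigen presentation genes lay below 0 in 18 of 18, with a median of -0.16 (18 of 18 and -0.15 without control-sired son 1), and 0 of them passed at an unadjusted p under 0.05 in either fit. Cd74, the invariant chain that escorts MHC class II molecules, read 9.52, 9.67, 11.31, 9.18 and 10.48 in control-sired sons and 11.10, 8.45, 10.95, 8.80 and 8.77 in HFD-sired sons. Its high values were in the arrays high in lymph node or B cell markers in both diets, and its difference was -0.42 ± 0.57 (-0.55 without control-sired son 1). Ciita, the activator of class II transcription, gave -0.34 ± 0.18 (exact permutation p = 0.159; -0.35 without that array). Without control-sired son 3 the list median was -0.03 with 6 of 18 above 0.

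Leaving out the 3 arrays high in lymph node markers, an alternative chosen after seeing the data, left controls 1, 2, 4 and 5 against HFD-sired sons 2, 4 and 5. The adjusted count stayed at 0 and 1113 probe sets passed unadjusted (3.81%), or 1068 without control-sired son 1 as well (3.66%). In that fit 9 of 10 B cell markers and 9 of 18 antigen presentation genes were lower at an unadjusted p under 0.05, where 1.92% of all genes were. Without control-sired son 1 as well, the counts were 6 of 10 and 9 of 18, where 1.5% of all genes were lower, with list medians of -0.80 and -0.30. The arrays left out were chosen on markers that move with these lists, so the counts describe the 6 or 7 arrays that remain. In those arrays the 3 HFD-sired sons had B cell list means of 5.33 to 5.39, below each control-sired son kept (5.44 to 7.10), and control-sired son 4 nearly touched them.

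Macrophage and myeloid markers were split, with 9 of 22 above 0 and a median of -0.02, and 12 of 22 and 0.02 without control-sired son 1. Single arrays set that split: 4 of 22 lay above 0 without HFD-sired son 1 (median -0.19) and 16 of 22 without control-sired son 3 (median 0.20). Ptprc (CD45), carried by all white blood cells, read 7.53, 7.52, 10.27, 6.21 and 9.01 in control-sired sons and 9.17, 5.85, 9.54, 5.96 and 6.18 in HFD-sired sons, a difference of -0.77 ± 0.88 (-0.91 without control-sired son 1). Cd68, a lysosomal protein of macrophages, gave 0.15 ± 0.33 (0.09 without that array). T and NK cell markers lay above 0 in 5 of 22 (median -0.10), and in 7 of 22 without control-sired son 1 (median -0.05). They lay above 0 in 15 of 22 without control-sired son 3 (median 0.03) and in 3 of 22 without HFD-sired son 3 (median -0.23).

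Of 42 cytokines, chemokines and their receptors, 2 were higher and 1 was lower at an unadjusted p under 0.05, against 1.63% and 1.43% of all genes. The higher ones were Tgfb2 and Il13ra1, a receptor chain for interleukin 13 (0.29 ± 0.13), and the lower one Ccr6. Without control-sired son 1 Il13ra1 gave 0.20 and no longer passed, which left 1 higher and 1 lower, against 1.47% and 0.903%. The list lay above 0 in 26 of 42 (median 0.04), in 28 of 42 without that array (median 0.06) and in 15 of 42 without HFD-sired son 1 (median -0.05). Il1b, the inflammatory cytokine that impairs beta cells, gave 0.06 ± 0.21, Il6 0.05 ± 0.29 and Tnf -0.19 ± 0.18 (0.05, -0.02 and -0.03 without control-sired son 1). Without the 3 arrays high in lymph node markers Il6 was higher, at 0.39 ± 0.12, and at 0.40 ± 0.11 without control-sired son 1 as well. Both passed an unadjusted p under 0.05 in limma. Il1b gave -0.04 and -0.01 in these fits and Tnf -0.28 and -0.08. In each, 2 of the 42 genes were higher at that threshold, where 218 and then 189 of 14506 genes were. The Il6 probe set was dim, with 18.6% of all probe sets dimmer. The chemokines Ccl2 and Cxcl1, which recruit monocytes and neutrophils, gave 0.06 ± 0.40 and 0.02 ± 0.32 (0.24 and 0.12 without control-sired son 1). Il13ra2, a decoy receptor for interleukin 13, read 4.12, 3.52, 7.05, 3.61 and 3.94 in control-sired sons and 6.16, 3.77, 6.28, 3.49 and 3.52 in HFD-sired sons. Its 3 high values were in the same 3 arrays as the lymph node markers, 1 control-sired and 2 HFD-sired, and its difference was 0.20 ± 0.75 (0.12 without control-sired son 1). NF-kappa B pathway genes lay above 0 in 15 of 22 (median 0.05), in 14 of 22 without that array (median 0.07) and in 9 of 22 without HFD-sired son 1 (median -0.05). Interferon response genes lay above 0 in 7 of 18 (median -0.06), and in 8 of 18 without control-sired son 1 (median -0.06). In each fit 1 of 18 was lower at an unadjusted p under 0.05, against 1.43% and 0.903% of all genes. With 10 arrays it was Oasl, an interferon-induced gene, at -0.34 ± 0.14 (exact permutation p = 0.0476; -0.24 without control-sired son 1, where it no longer passed in limma). Without control-sired son 1 it was Rsad2, at -0.35 ± 0.13 (-0.27 ± 0.14 with all arrays).

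Ins1, Ins2 and Gcg lay at the top of the table's range, which ends at 14.17, so a difference in their RNA might not show in these values. Ins1 read 13.82, 13.91, 13.91, 14.06 and 13.96 in control-sired sons and 13.86, 13.85, 13.90, 13.84 and 13.95 in HFD-sired sons, a difference of -0.05 ± 0.08. Ins2 gave -0.04 ± 0.08, Iapp (amylin) -0.01 ± 0.11, Gcg 0.00 ± 0.08, Ppy (pancreatic polypeptide) 0.07 ± 0.18 and Sst 0.23 ± 0.16. In the same order of genes, these 6 gave -0.08, -0.04, -0.03, 0.00, 0.11 and 0.23 without control-sired son 1. Of 20 beta cell identity genes 0 passed at an unadjusted p under 0.05 and 14 lay above 0 (median 0.04), with 13 above 0 and the same median without that array. Slc2a2, the glucose transporter GLUT2, gave 0.03 ± 0.14, and Neurod1, a transcription factor of endocrine cells, 0.22 ± 0.22 (-0.06 and 0.15 without it).

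Genes of secretory granules and excitability lay above 0 in 18 of 19 with 10 arrays (median 0.13) and in 18 of 19 without control-sired son 1 (median 0.09), and 0 passed at an unadjusted p under 0.05. Snap25, a membrane fusion protein, gave 0.37 ± 0.20, with 9.03 in control-sired son 1 as the lowest value, and 0.22 ± 0.17 without it. Rab3a, a granule GTPase, gave 0.21 ± 0.11 and 0.23 ± 0.12. Insulin and growth factor signalling lay above 0 in 21 of 23 (median 0.12), and the median was 0.06 without the compressed array. Pik3r1, the regulatory subunit of PI3-kinase, gave 0.22 ± 0.24 with that array and 0.02 ± 0.20 without it. Chaperones and sensors of endoplasmic reticulum stress lay above 0 in 16 of 20 (median 0.15; 0.11 without that array), with Hyou1 and Pdia4, both of the folding machinery, at 0.26 ± 0.15 (0.23 and 0.22 without it). The share of all genes above 0 was 54.5% with 10 arrays and 59.1% with 9. These lists are bright, with no member below the array median. Bright probe sets of any kind had a median difference of up to 0.10, and up to 0.04 without control-sired son 1.

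Of the genes of oxidative phosphorylation, fatty acid oxidation, glycolysis and lipid synthesis, Ppara alone passed an unadjusted p under 0.05 with 10 arrays, where 1.63% of all genes were higher and 1.43% lower. Without control-sired son 1 the ones that passed were Pkm, the pyruvate kinase of glycolysis, at 0.24 ± 0.10 (0.19 ± 0.11 with all arrays), and Cox5a, a subunit of cytochrome oxidase, at -0.25 ± 0.10 (-0.22 ± 0.10), where 1.47% of all genes were higher and 0.903% lower. Oxidative phosphorylation genes lay above 0 in 18 of 28 with 10 arrays and in 11 of 28 with 9 (medians of 0.03 and -0.02). Fatty acid oxidation gave 12 of 21 and then 6 of 21. Ppara, the nuclear receptor that drives that pathway, gave 0.33 ± 0.14 (exact permutation p = 0.0794) and 0.28 ± 0.15 without control-sired son 1, where it did not pass. Cholesterol and fatty acid synthesis genes lay above 0 in 14 of 16 (median 0.12) and 16 of 16 without it (median 0.09), with 0 at an unadjusted p under 0.05. The share of all genes above 0 was 54.5% with 10 arrays and 59.1% with 9. Mt2A, a metal-binding metallothionein, varied from 7.76 to 11.98 over the sons and gave -1.0 ± 0.56 (-0.95 without that array). Of the brown and white fat markers, 10 of 19 lay above 0, and 16 of 19 did without it. In that list Lpl, lipoprotein lipase, gave 0.35 ± 0.16 (exact permutation p = 0.103) and Cox8b, a cytochrome oxidase subunit of brown fat and muscle, -0.35 ± 0.16 (p = 0.0556). Both passed an unadjusted p under 0.05 in limma with 10 arrays, and neither did without control-sired son 1.

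**Figure D4:**
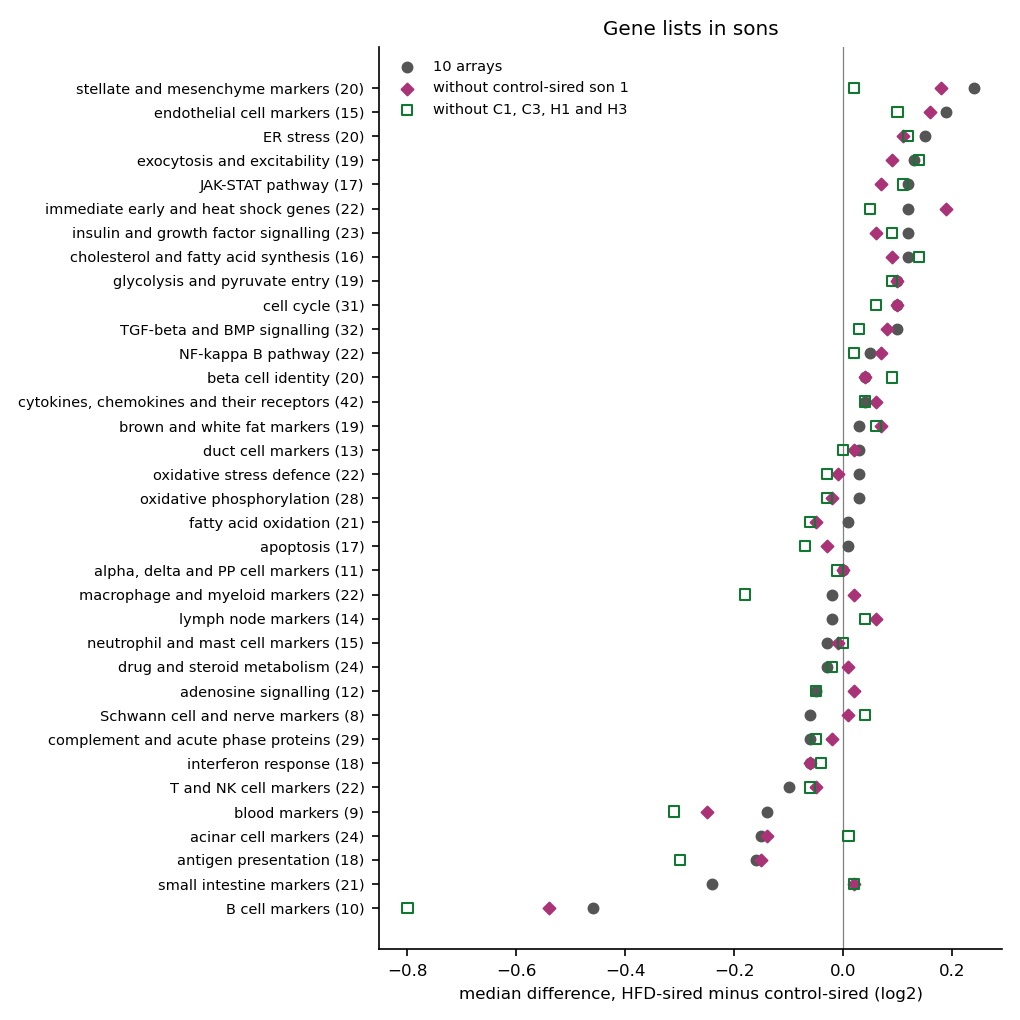
Median difference (log2, HFD-sired minus control-sired sons) over the members of each gene list with 8 or more measured genes, the number in parentheses; filled circles use 10 arrays, diamonds leave out control-sired son 1, and open squares leave out that array and the 3 arrays high in lymph node markers. B cell markers are lowest in each setting, from -0.46 to -0.80, while the small intestine markers go from -0.24 to 0.02 once control-sired son 1 is left out.

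Stromal and vascular genes had means above 0, in 19 of 20 stellate and mesenchyme markers (median 0.24; 0.18 without control-sired son 1) and 13 of 15 endothelial markers (median 0.19; 0.16). The share of all genes above 0 was 54.5%. The stromal shift rested on HFD-sired son 1: without it the median was 0.02 with 11 of 20 above 0. At an unadjusted p under 0.05, 2 stromal markers were higher, where 1.63% of all genes were (1.47% without control-sired son 1), and both passed in each of the 10 fits without 1 array. Thy1, a surface glycoprotein of fibroblasts, nerve and T cells, read 7.76, 7.55, 7.63, 7.33 and 7.14 in control-sired sons and 7.95, 7.70, 8.20, 7.79 and 8.33 in HFD-sired sons. Only HFD-sired son 2 reached into the control range, and the difference was 0.51 ± 0.15 (exact permutation p = 0.0159; 0.58 ± 0.15 without control-sired son 1). Rgs5, a pericyte regulator of G protein signalling, read 9.92, 9.95, 9.89, 9.94 and 10.14 against 10.42, 10.09, 10.23, 10.65 and 10.29. It gave 0.37 ± 0.11 (exact permutation p = 0.0159) and 0.36 ± 0.11 without that array, and ran from 0.29 to 0.43 over the fits without 1 array.

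Tgfb2, a ligand of the transforming growth factor beta family, was higher on average in HFD-sired sons. Its values were 7.0, 7.32, 7.16, 6.97 and 7.23 in control-sired sons and 7.79, 7.51, 7.17, 8.15 and 7.56 in HFD-sired sons. HFD-sired son 3 lay within the controls and the other 4 above them, and the difference was 0.50 ± 0.16 (exact permutation p = 0.0238; 0.47 ± 0.17 without control-sired son 1). Of 32 genes of TGF-beta and BMP signalling, 27 lay above 0 (median 0.10), and 26 did without that array (median 0.08). The shares of all genes above 0 were 54.5% and 59.1%. Without HFD-sired son 1, 22 of 32 lay above 0 (median 0.04). Without the 3 arrays high in lymph node markers 18 of 32 did (median 0.01), where 7270 of 14506 genes did. The count was again 18 without control-sired son 1 as well (median 0.03), where 8057 of 14506 genes lay above 0. The receptor Acvr1 gave 0.22 ± 0.10 (exact permutation p = 0.0476), and 0.21 ± 0.10 without control-sired son 1. The ligand subunit Inhbb gave -0.34 ± 0.14 (exact permutation p = 0.0476), and -0.24 ± 0.12 without that array. Acvr1 and Inhbb passed in limma with 10 arrays and not without control-sired son 1. Cell cycle genes lay above 0 in 27 of 31 (median 0.10), with the same count and median without control-sired son 1, and in 17 of 31 without control-sired son 4 (median 0.00).

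Blood markers lay below 0 in 8 of 9, with a median of -0.14 and -0.25 without control-sired son 1. Hbb-b1, a beta globin, read 8.78, 10.08, 10.05, 9.47 and 9.25 in control-sired sons and 9.45, 8.79, 9.40, 7.87 and 8.67 in HFD-sired sons. Control-sired son 1, with compressed bright signals, was the lowest control, and the difference was -0.69 ± 0.32 with it (exact permutation p = 0.127) and -0.88 ± 0.31 without it. Alas2, which starts haem synthesis in red cell precursors, gave -0.39 ± 0.18 and -0.45 ± 0.18. Acinar markers lay above 0 in 1 of 24 (median -0.15), in 1 of 24 without control-sired son 1 (median -0.14) and in 16 of 24 without HFD-sired son 1 (median 0.04).

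Among the other genes named by rank, Alcam, an adhesion molecule of the immunoglobulin family, separated the groups. It read 8.79, 9.34, 9.38, 9.45 and 9.49 in control-sired sons and 9.75, 9.67, 9.60, 9.85 and 9.77 in HFD-sired sons. The difference was 0.44 ± 0.13 with control-sired son 1, its lowest array, and 0.31 ± 0.08 without it; the exact permutation p was 0.00794. Cpeb4, which binds the tails of messenger RNAs and controls their translation, was at 8.66 to 8.90 in control-sired sons and 9.00 to 9.21 in HFD-sired sons (0.30 ± 0.09; 0.29 ± 0.08 without that array). Xylt1, which starts glycosaminoglycan chains on proteoglycans, was at 7.47 to 7.59 and 7.66 to 8.03 (0.30 ± 0.09; 0.31 ± 0.09). Mgat3, a glycosyltransferase of N-glycans, was at 7.30 to 7.51 and 7.55 to 7.87 (0.32 ± 0.09; 0.29 ± 0.09).

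The groups overlapped for 6 other genes that were higher on average in HFD-sired sons. Plcxd3 gave 0.59 ± 0.21, the transmembrane protease gene Tmprss3 0.51 ± 0.22 and Lingo2 0.48 ± 0.14. Arsb, a lysosomal sulfatase, gave 0.42 ± 0.15, Bace2, a protease of beta cells that cleaves Tmem27, 0.42 ± 0.15, and Prkar2b, a regulatory subunit of protein kinase A, 0.44 ± 0.16. Each kept an unadjusted p under 0.05 without control-sired son 1, where the differences were 0.62, 0.63, 0.56, 0.50, 0.32 and 0.37. Lower on average were Gpr18, a G protein-coupled receptor of lymphoid cells (-0.51 ± 0.19; -0.47 without control-sired son 1), and Prss39, a serine protease gene (-0.50 ± 0.15; -0.41). Or4k42b, an olfactory receptor gene with a dim probe set, gave -0.83 ± 0.21 and -0.69 without that array. Or1f31, another olfactory receptor gene with a dim probe set, lay in the other direction, at 0.48 ± 0.13 and 0.56. Syne2, a protein of the nuclear envelope, moved with the compressed array: control-sired son 1 read 7.47 and the other control-sired sons 8.26 to 8.40. The lowest HFD-sired son read 8.47, so the groups did not overlap, and the difference was 0.42 ± 0.16 with it and 0.25 ± 0.08 without it.

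**Figure D5:**
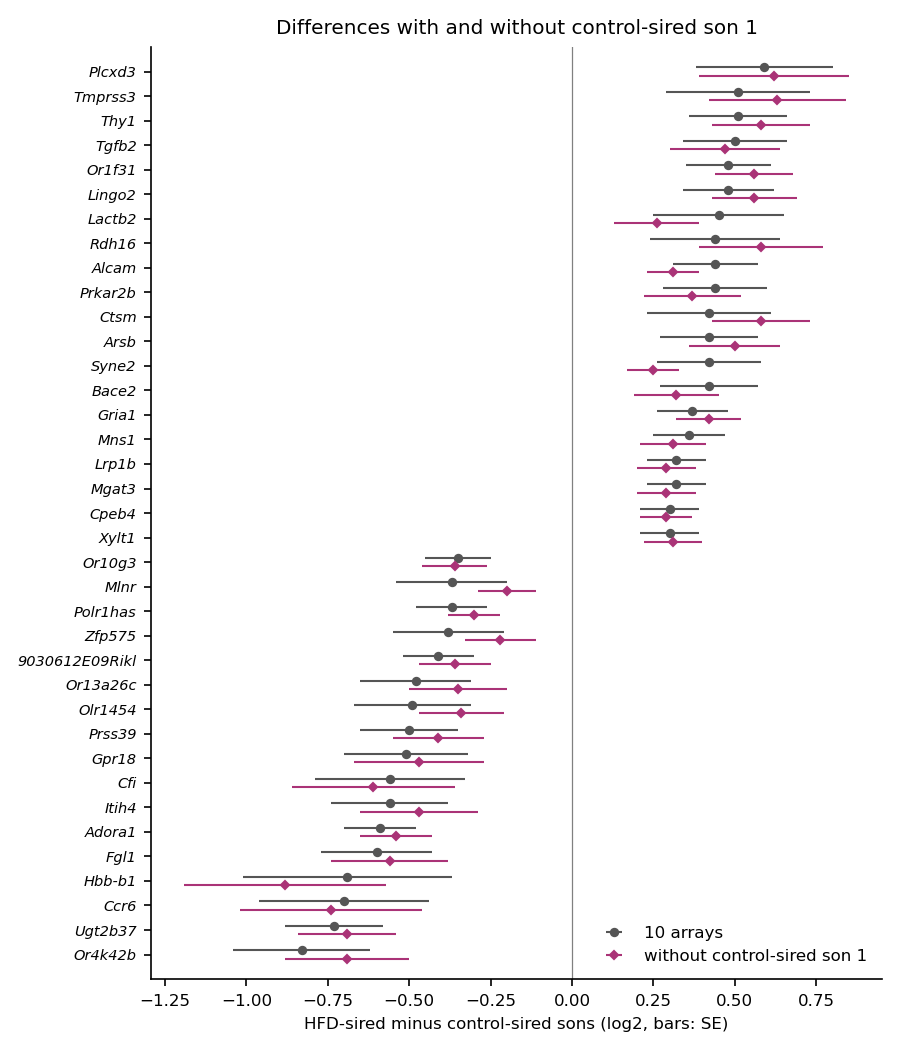
Difference between HFD-sired and control-sired sons (log2) with its standard error for the genes named by size, by p or by their shift, with 10 arrays (circles) and without control-sired son 1 (diamonds). No gene changes sign; Hbb-b1 goes from -0.69 to -0.88 and Syne2 from 0.42 to 0.25.

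An unadjusted p under 0.05 in each of the 10 fits that leave out 1 array was met by 303 probe sets (1.04%; 102 higher, 201 lower). Of these, 110 carry a single gene symbol, 60 higher and 50 lower, and they include Adora1, Ugt2b37, Fgl1, Itih4, Tgfb2, Thy1, Rgs5 and Alcam. A single probe set passed the adjusted threshold in any such fit. It has no gene name in the annotation used (probe set 10700838), read 4.66 to 4.93 in control-sired sons and 3.16, 4.52, 2.42, 3.29 and 2.85 in HFD-sired sons, and gave -1.54 ± 0.30 with all arrays. Without HFD-sired son 2, the HFD-sired son nearest the controls, it gave -1.86 ± 0.17 with an adjusted p of 0.00681. In daughters it ranged from 2.90 to 5.58.

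The diet difference in sons was set against that in daughters by an interaction term over all 20 arrays. At an adjusted p under 0.05, 0 of 29214 probe sets differed, and 950 did unadjusted (3.25%), or 1021 without control-sired son 1. HFD-sired daughter 1, numbered likewise, stood apart from the other daughters. Its median correlation with them was 0.941, the lowest of the 20 arrays, and its slope on their median was 0.949. Without it 868 probe sets passed unadjusted (2.97%) and the adjusted count was 0. The values for single genes below keep both of these arrays. Reg3a gave -2.20 ± 1.00 in daughters and Reg3b -1.99 ± 1.15, so the sons' differences were further from 0 by only 0.08 ± 1.46 and 0.38 ± 1.61. Adora1 gave -0.45 ± 0.16 in daughters, and the difference between the sexes was -0.14 ± 0.20 (adjusted p = 0.932). Thy1 was lower by 0.34 ± 0.22 in HFD-sired daughters, where the interaction was 0.85 ± 0.28 (adjusted p = 0.922). Rgs5 gave -0.12 ± 0.09 in daughters, with an interaction of 0.49 ± 0.14 (adjusted p = 0.922). Alcam gave -0.20 ± 0.18 and an interaction of 0.64 ± 0.23, and Tgfb2 -0.01 ± 0.10 and 0.51 ± 0.20. The smallest unadjusted p among single-symbol probe sets belonged to Lrrc51, higher by 0.34 ± 0.12 on average in HFD-sired sons and lower by 0.31 ± 0.12 in HFD-sired daughters. Angptl8, a hormone-like regulator of lipoprotein lipase, was 0.34 ± 0.15 in sons and -0.32 ± 0.10 in daughters (adjusted p = 0.922).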

How the data were processed

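Islet RNA of 20 rats was measured on Affymetrix Rat Gene 1.0 ST arrays, of which the 10 from sons were compared. The deposited values are log2 expression, made by the authors with robust multi-array averaging per the labels' design text. The submitters' processing notes name MAS5 alone, and the files do not settle which was used. Array values carry no counts, so the number of arrays limits precision. Of 29214 probe sets, 15310 have a single gene symbol (14506 genes), 323 several and 13581 none in the platform table; 15279 matched RefSeq.

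Diet groups were fitted with limma 3.58.1 in R 4.3.3 (lmFit, eBayes) on the values as deposited over all probe sets; p-values were adjusted by Benjamini-Hochberg (threshold 0.05), and the fit was checked on simulated data. Sons and daughters were compared by interaction. A gene in a list is its brightest single-symbol probe set; 704 of 801 entries in 38 lists were measured. The members, lists and naming rules were chosen with earlier results of these data known. Named genes are the 12 largest differences in each direction that pass unadjusted with and without control-sired son 1, the 8 smallest p in each direction, the 5 that move most without that array, fixed hormone, cytokine, REG and adenosine genes, list members that pass unadjusted or are among the 3 largest of a list, the 5 smallest interaction p in each direction, and probe sets past the adjusted threshold when 1 array is left out. Alternatives were leaving out arrays, quantile normalization, median centring, array weights, other variance models, a fit of all 20 arrays and filters on probe sets. Per the labels' design text each array is a separate litter; which fathers the sons share, if any, is not given.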

Additional observations from a re-analysis of the deposited data

Results flagged for a closer look

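In 158 groups of 5 arrays (79 genes), 14 had a highest or lowest array separated from the nearest other by more of the group's range than Dixon's 95% critical value (0.71). Chance flags about 1 in 20 groups when genes are chosen without regard to these values, which was not so for all genes here. Mlnr and Syne2 were named only because they are among the 5 that move most without control-sired son 1. The choice itself therefore favoured a flag of that array for these genes.

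Control-sired son 1 accounts for 6 of the 14. It was high for Ada (7.20, next 6.39), Mlnr, the motilin receptor (5.94, next 5.20), Scn11a, a sodium channel (4.91, next 4.55), and Reg3g (11.04, next 6.87), and low for Alcam (8.79, next 9.34) and Syne2 (7.47, next 8.26). Control-sired son 3, high in lymph node markers, was high for Il13ra2 (7.05, next 4.12), Il1b (6.52, next 5.87) and Il6 (5.96, next 4.46). Control-sired son 5 was low for Reg3b (10.15, next 12.54) and high for Rgs5 (10.14, next 9.95). Control-sired son 2 was low for Ppy (12.54, next 13.22). HFD-sired son 1 was high for Cxcl1 (8.48, next 7.15) and for Reg3g (7.41, next 5.46).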

How the results depend on the processing

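The count at the adjusted threshold was 0 in every setting run except without HFD-sired son 2, where it was 1. The unadjusted count of 1093 was 623 of 14607 when the dimmer probe sets were dropped, 513 of 15310 over single-symbol probe sets and 1845 in a fit of all 20 arrays. It ran from 677 (without HFD-sired son 4) to 1911 (without control-sired son 3) over the fits without 1 array, with 705 without HFD-sired son 1 and 1849 without control-sired son 5, while the count of adjusted calls ran from 0 to 1. Quantile normalization gave 992, array weights 1322, trend and robust moderation 1102, least squares 1212, and 9 arrays with quantile normalization 1051. The interaction count of 950 ran from 688 to 1408. The REG list median was -0.40 without control-sired son 1. The cause was not tested for any of these.

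Signs turned in the settings that follow, for genes whose difference with all arrays was within 0.20 of 0 except Fabp1, Fabp2, Glycam1 and Reg4 (-0.59, -0.66, 0.51 and -0.26). With quantile normalization Gcg gave 0.03, Iapp 0.03, Ins2 0.02, Sry 0.07, Cxcl1 -0.01 and Slc29a1 -0.05. Median centring gave Adk 0.03, Gcg 0.04, Iapp 0.04, Ins2 0.01 and Sry 0.04. Array weights gave Ada 0.01, Adora2a 0.01, Entpd2 0.02, Slc2a2 -0.06 and Sry 0.03. Over the fits without 1 array the difference ran from -0.24 to 0.04 for Ada, -0.09 to 0.04 for Adk, -0.22 to 0.30 for Ccl2, -0.04 to 0.39 for Cd68, -0.28 to 0.00 for Cftr, -0.30 to 0.15 for Cxcl1, -0.06 to 0.19 for Dpp4, -0.17 to 0.01 for Entpd2, -0.79 to 0.02 for Fabp1, -0.88 to 0.07 for Fabp2, -0.03 to 0.03 for Gcg, -0.05 to 1.15 for Glycam1, -0.07 to 0.06 for Iapp, -0.21 to 0.85 for Il13ra2, -0.04 to 0.21 for Il1b, -0.06 to 0.38 for Il6, -0.10 to 0.14 for Ppy, -0.40 to 0.01 for Reg4, 0.00 to 0.06 for Slc29a1, -0.06 to 0.11 for Slc2a2, -0.03 to 0.04 for Sry and -0.11 to 0.70 for Vcam1. No paired analysis was possible because the labels give no replicate numbers, and numbers in accession order pair nothing.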

Other observations

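Probe sets without a gene name make up 629 of the 1093 that passed unadjusted (57.5%) and 46.5% of all 29214 tested, 444 lower and 185 higher in HFD-sired sons. Those below were picked after their values were seen. Probe set 10886988 had separate levels: HFD-sired sons 1, 2 and 4 read 8.41, 8.28 and 8.25, and HFD-sired sons 3 and 5 read 4.15 and 4.61, within or near the control-sired sons at 4.10 to 5.06. Over all 20 arrays 8 read 8.25 to 8.74 and the other 12 read 3.31 to 5.06. The high level was found in 0 of 5 control-sired sons, 3 of 5 HFD-sired sons, 2 of 5 control-sired daughters and 3 of 5 HFD-sired daughters. Probe set 10729762 read 7.96, 9.53, 8.65, 7.23 and 5.48 in control-sired sons and 4.31, 7.05, 4.18, 4.55 and 7.52 in HFD-sired sons, a difference of -2.25 ± 0.82. It was high in the arrays high in Reg3a and low in those low in it, such as control-sired son 5 and HFD-sired sons 1, 3 and 4.

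Immediate early genes split the arrays within both diets. Fos, a transcription factor subunit induced within minutes, read 6.69 and 6.73 in control-sired sons 4 and 5 and 7.70 and 7.46 in HFD-sired sons 4 and 5, against 9.06 to 10.42 in the other 6 sons. Egr1 and Jun had the same 4 arrays lowest. Of 22 genes of this list 17 lay above 0 (median difference 0.12), and 10 of 22 did without HFD-sired son 1 (median -0.01).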
